A study of Mus musculus with 22 samples.

Results

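The genes described here are the enzymes and carriers that remove superoxide, peroxides and reactive electrophiles or that pass electrons through glutathione and thioredoxin. They were taken by gene name from the table of testis RNA counts: the glutathione peroxidases (Gpx), peroxiredoxins (Prdx), superoxide dismutases (Sod), soluble and microsomal glutathione S-transferases (Gst, Mgst), thioredoxins and their reductases (Txn, Txnrd), thioredoxin-domain proteins (Txndc), glutaredoxins (Glrx), and Cat, Lpo, Gclc, Gclm, Gsr, Nqo1, Hmox1 and Hmox2. The thioredoxin-binding protein Txnip is outside this selection. The selection gave 67 of the 17931 gene symbols in the table. The libraries were made from whole testes of wild-type (WT) males that had bred successfully and of constitutive Mlx knockout (MLX KO) males, 3 of each, in 3 littermate pairs at 7 months of age. The knockout allele lacks Mlx exons 3 to 6, which encode the bHLHLZ domain of MLX, a partner of MondoA, ChREBP and MNT in binding DNA. It was made in 129S4 embryonic stem cells, with the whole-body deletion driven by Meox2-Cre and the Cre allele later crossed out. MLX is therefore absent by design from every cell type of these testes and not from germ cells alone. The comparison asks how the transcripts of the testis differ between littermates with and without MLX.

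Superoxide dismutases turn superoxide into hydrogen peroxide, which catalase, the glutathione peroxidases and the peroxiredoxins then reduce. Glutathione reductase and the thioredoxin reductases regenerate these systems with electrons from NADPH, and the glutathione S-transferases (GST) attach glutathione to electrophiles. Some of these proteins have a known role in the testis. Gpx4 is both an enzyme and a structural protein of the sperm midpiece. Txndc2 and Txndc8 are thioredoxins of spermatids, and Txnrd3 is a reductase that also carries a glutaredoxin domain.

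The 6 libraries held between 16674678 and 19742726 counts. Mlx itself was counted at 128, 96 and 98 reads in the WT and 94, 109 and 102 reads in the MLX KO libraries (log2 fold change -0.18, SE 0.14, adjusted p = 0.326). Counts are given per gene symbol, and the knockout allele keeps exons 1, 2 and 7. How reads were assigned to exons is not stated, so this value does not check the deletion. Tested by quasi-likelihood in edgeR and adjusted by the Benjamini-Hochberg method, 45.4% of the 14640 genes tested were called, 24.8% higher (3634) and 20.6% lower (3015) in MLX KO testes. Scaling by library size alone moved the median log2 fold change of all genes up by 0.14 and gave 5343 higher and 1268 lower. Marker lists of testis cell types moved in opposite directions: 10 of 10 elongating spermatid markers, 10 of 10 round spermatid markers and 7 of 10 spermatocyte markers fell, with median log2 fold changes of -0.55, -0.27 and -0.16. The Sertoli (10 of 10), Leydig (9 of 9) and macrophage (9 of 9) markers rose, with medians of 0.78, 1.07 and 1.28. The macrophage marker Cx3cr1 was near the threshold (adjusted p = 0.0494), and its groups overlapped. Summed over each list, elongating spermatid markers ran from 23433 to 24386 CPM (counts per 1000000 counts of the library) in WT and from 13873 to 17007 CPM in MLX KO libraries, and Leydig markers from 901 to 924 CPM and from 1909 to 2527 CPM. Of the other lists, 2 of 10 spermatogonium markers rose and 1 fell, 4 of 6 peritubular myoid markers rose and 1 fell, 2 of 7 endothelial markers rose, and the red blood cell marker tested was not called. Of the epididymal markers, 6 had too few counts to test and the remaining marker, Rnase10, fell. In whole-testis RNA, fewer cells of a type and less RNA per cell cannot be told apart, and the part of these marker shifts in the values below was not tested.

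Promoters were read from RefSeq (GRCm38.p6, the assembly of mm10) as windows of 250 bases before to 50 bases after each start site, and 59 of the 67 members had such an entry. The E-box CACGTG, the core element bound by MLX with its partners, was searched on both strands and lay in 5 of 84 member promoters (5.95%), against 7.15% of all 32851 promoters. TGACNNNGC, the core of the antioxidant response element bound by NRF2, lay in 11 of 84 (13.1%), against 12.4% of all promoters. Both shares were close to those of all promoters. Counted by gene, CACGTG was found for 5 of 59 members and 2187 of all 27025 genes. TGACNNNGC was found for 11 of 59 members and 3781 of all 27025 genes. Genes with several start sites have more chances of a match, and the counts that follow are by gene. By result, CACGTG was found for 1 of 26 members that rose (Txndc5), 2 of 13 that fell (Glrx2 and Prdx4) and 2 of 17 that were not called (Gpx6 and Txndc9). TGACNNNGC was found for 6 of 26 that rose (Gsta3, Gstm7, Mgst1, Prdx1, Txndc5 and Txnrd1), 2 of 13 that fell (Gstm5 and Txndc2) and 3 of 17 not called (Gclm, Sod1 and Txndc11). The 5 stretches printed here, all before the start site, are shown because the results turn on their genes. Lpo had the largest change of any member, and Txn1 and Txndc8 are neighbours that moved in opposite directions. Gsta3, which rose, holds a TGACNNNGC match, and Prdx4, which fell, holds a CACGTG match. Capitals mark the matched letters, which are a description of the window and not a measured binding site. The Txndc8, Gsta3 and Prdx4 stretches precede annotated starts that lie inside the span of the gene. The stretches lie at chr11:87826115-87826364 (minus strand), chr4:57956412-57956661 (minus strand), chr4:58009127-58009376 (minus strand), chr1:21240335-21240584 (plus strand) and chrX:155338475-155338710 (minus strand), in this order.
Lpo: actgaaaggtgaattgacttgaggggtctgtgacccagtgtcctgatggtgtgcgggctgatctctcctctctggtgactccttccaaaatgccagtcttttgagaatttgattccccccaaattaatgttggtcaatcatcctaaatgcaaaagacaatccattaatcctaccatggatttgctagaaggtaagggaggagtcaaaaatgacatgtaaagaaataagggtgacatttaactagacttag
Txn1: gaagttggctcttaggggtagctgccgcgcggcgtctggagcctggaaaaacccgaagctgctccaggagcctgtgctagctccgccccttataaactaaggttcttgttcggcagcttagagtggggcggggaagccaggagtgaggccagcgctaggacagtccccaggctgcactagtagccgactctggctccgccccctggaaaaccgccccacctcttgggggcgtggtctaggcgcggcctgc
Txndc8: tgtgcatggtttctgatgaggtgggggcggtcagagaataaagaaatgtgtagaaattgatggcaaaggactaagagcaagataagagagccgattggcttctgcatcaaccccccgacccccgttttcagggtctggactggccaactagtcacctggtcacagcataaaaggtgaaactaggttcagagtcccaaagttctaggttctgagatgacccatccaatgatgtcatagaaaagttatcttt
Gsta3: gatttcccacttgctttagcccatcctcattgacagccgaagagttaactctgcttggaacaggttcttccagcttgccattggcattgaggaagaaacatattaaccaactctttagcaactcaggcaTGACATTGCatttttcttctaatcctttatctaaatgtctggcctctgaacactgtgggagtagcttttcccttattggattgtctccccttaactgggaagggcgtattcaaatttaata
Prdx4: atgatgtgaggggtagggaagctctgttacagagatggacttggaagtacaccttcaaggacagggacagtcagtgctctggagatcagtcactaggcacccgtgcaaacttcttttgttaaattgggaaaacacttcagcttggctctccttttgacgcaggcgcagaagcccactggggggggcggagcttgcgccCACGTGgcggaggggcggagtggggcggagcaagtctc

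Of the 67 members, 64 had enough counts to be tested, and 30 of these rose (46.9%, against 24.8% of all genes) and 14 fell (21.9%, against 20.6%) in MLX KO testes at an adjusted p under 0.05. The remaining 20 were not called. Of the 64, 9 rose by more than 1 on the log2 scale, which 5.68% of all genes did. The median log2 fold change of the 64 was 0.28, against 0.03 over all genes tested. Each of the 44 called members moved in its direction in 3 of 3 littermate pairs, but nearly all called genes did so, 3600 of 3634 that were higher and 2998 of 3015 that were lower in the whole table. In 32 of the 64 members every MLX KO library lay above every WT library, and in 16 every MLX KO library lay below, shares that all genes reached at 30.3% and 25.9%. Gpx5, Gstm3 and Gstp2 had too few counts to test. Gpx5, a secreted peroxidase of the epididymis, had 1, 0 and 0 counts in the WT libraries and 2, 0 and 1 in the MLX KO libraries, Gstm3 had 1, 1 and 2 in WT against 4, 5 and 1 in MLX KO, and Gstp2 had 6, 1 and 0 against 6, 1 and 6.

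**Figure D1:**
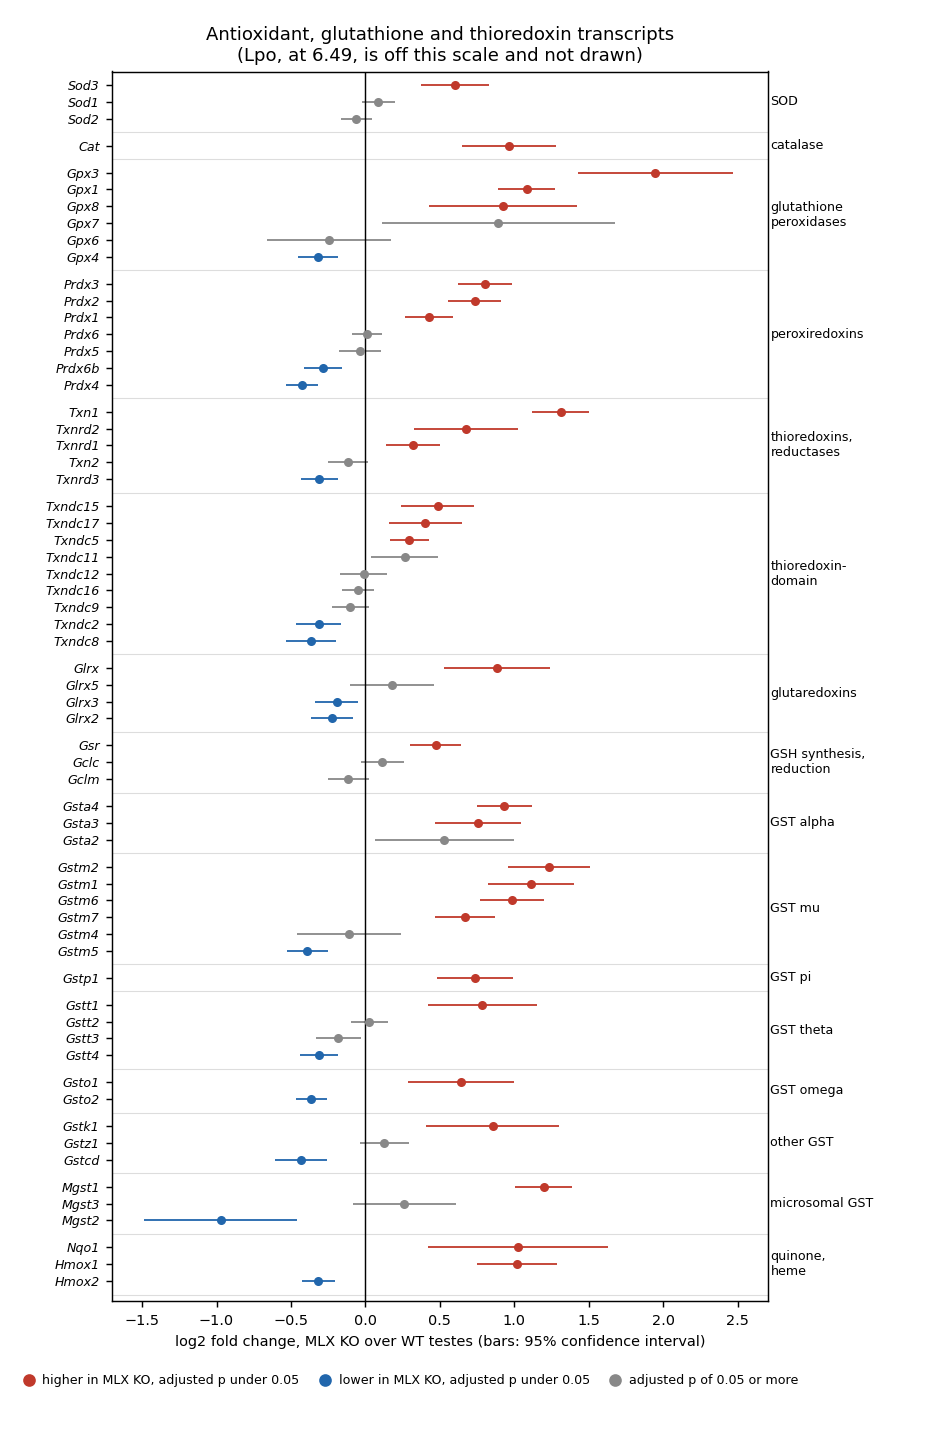
Log2 fold change (MLX KO over WT testes, x axis) of the tested members other than Lpo, grouped by role (y axis), with 95% confidence intervals as bars (3 libraries per genotype). Most roles hold both members that rose and members that fell, as in the thioredoxin reductases, where Txnrd1 and Txnrd2 lie at 0.32 and 0.68 and Txnrd3 lies at -0.31.

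Among the enzymes that handle superoxide, only the secreted form was called with TMM scaling. Sod3, the extracellular superoxide dismutase, was at 35.3, 41.6 and 43.8 CPM in WT and 51.2, 66.7 and 64.7 CPM in MLX KO libraries, a log2 fold change of 0.60 (SE 0.10, adjusted p = 9.35e-04). The lowest MLX KO library lay above the highest WT library. Sod1, the cytosolic copper-zinc enzyme and the most abundant of these transcripts per kilobase, was at 151, 151 and 142 CPM and 158, 163 and 150.0 CPM, and its groups overlapped. The log2 fold change of Sod1 was 0.09 (95% confidence interval -0.026 to 0.20), and that of Sod2, the mitochondrial manganese enzyme, was -0.06 (-0.17 to 0.045). With library size alone Sod1 was called as well, at 0.23 (adjusted p = 0.00356).

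The heme enzymes that use hydrogen peroxide were both higher in MLX KO testes. Catalase (Cat), the enzyme of peroxisomes that breaks down hydrogen peroxide, was at 10.4, 16.0 and 11.4 CPM in WT and 21.6, 27.1 and 24.7 CPM in MLX KO libraries (log2 fold change 0.96, SE 0.14, adjusted p = 3.89e-04). Lactoperoxidase (Lpo, chr11:87806428-87826114), a peroxidase of milk, saliva and other secretions, was nearly unread in WT testes, with counts of 3, 4 and 2. The MLX KO libraries held 493, 178 and 240 Lpo counts, or 25.4, 9.85 and 12.7 CPM. Every MLX KO library was thus far above every WT library, and the highest MLX KO library was replicate 1. Summed over libraries and scaled to their size, Lpo was 94.2 times as high in MLX KO testes (95% interval 49.4 to 207, for counting error only). Its fitted log2 fold change of 6.49 (SE 0.53, adjusted p = 9.72e-06) was the largest of all 14640 genes tested. Lpo lies 2.02 kb from Mpo, the myeloperoxidase of neutrophils, which fell from counts of 86, 69 and 53 to 13, 28 and 21 (log2 fold change -1.84, SE 0.28, adjusted p = 4.59e-04). Epx, the eosinophil peroxidase of the same stretch of chromosome 11, had counts of 4, 1 and 0 in WT and 0 in each MLX KO library and was not tested. Mks1, between Lpo and Epx and no peroxidase gene, was not called (log2 fold change -0.24, adjusted p = 0.0782). The deleted gene Mlx lies 13.3 Mb from Lpo on the same chromosome.

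Of the 6 glutathione peroxidases tested, 3 rose, 1 fell and 2 were not called, where 24.8% of all genes rose and 20.6% fell. Gpx3, the secreted peroxidase of plasma, was at 5.54, 7.57 and 5.86 CPM in WT and 16.2, 22.9 and 33.7 CPM in MLX KO libraries, a log2 fold change of 1.95 (SE 0.24, adjusted p = 1.09e-04). Gpx1, the cytosolic enzyme, rose from 15.5, 18.6 and 19.0 CPM to 35.2, 39.3 and 37.8 CPM (log2 fold change 1.08, SE 0.088, adjusted p = 9.48e-06). Gpx8, a member of the endoplasmic reticulum, was at 1.11, 1.65 and 1.52 CPM and 2.58, 2.38 and 3.12 CPM (log2 fold change 0.92, SE 0.23, adjusted p = 0.00671), and its adjusted p was 0.0889 when DESeq2 blocked the littermate pairs. In all of these genes the groups did not overlap. Gpx4 (chr10:80047166-80056439) was the most abundant of the class, at 639.6 CPM per kilobase of exon in WT testes. It fell from 1064, 1132 and 1111 CPM in WT to 963, 858 and 833 CPM in MLX KO libraries (log2 fold change -0.32, SE 0.061, adjusted p = 0.00169). Every MLX KO library lay below every WT library. Of the 50-base stretches of Gpx4 transcripts, 34.7% also occur in the pseudogene Gpx4-ps2, so its count is uncertain to that extent. Per kilobase of exon, Gpx4 made up 95.6 ± 0.427% of the summed glutathione peroxidase level in WT and 90.7 ± 1.13% in MLX KO testes (SD, n = 3 each). Gpx7, a member of the endoplasmic reticulum counted at no more than 18 reads in any library, had a log2 fold change of 0.89 (adjusted p = 0.0600), and Gpx6 one of -0.24 (-0.66 to 0.17). Neither passed the threshold. Gpx7 was called without WT replicate 1 (log2 fold change 1.35, adjusted p = 0.0236) and with library size alone as the scaling (1.03, adjusted p = 0.0373), and Gpx6 without MLX KO replicate 1 (-0.52, adjusted p = 0.0108).

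Most peroxiredoxins reduce peroxides with electrons from thioredoxin. Of the 7, 3 rose (42.9%, against 24.8% of all genes) and 2 fell (28.6%, against 20.6%). Prdx3, the mitochondrial member, rose from 21.7, 23.5 and 23.8 CPM to 35.7, 43.1 and 41.8 CPM (log2 fold change 0.80, SE 0.083, adjusted p = 3.79e-05). Prdx2, a cytosolic member abundant in red blood cells, rose from 40.4, 42.2 and 42.2 CPM to 59.6, 74.0 and 73.8 CPM (log2 fold change 0.73, SE 0.081, adjusted p = 5.80e-05). Prdx1, the other typical cytosolic member, was at 74.4, 82.1 and 73.4 CPM in WT and 93.2, 114 and 102 CPM in MLX KO libraries (log2 fold change 0.43, SE 0.073, adjusted p = 8.34e-04). All MLX KO libraries exceeded all WT libraries in these genes. Prdx4 (chrX:155323918-155342272), which works in the endoplasmic reticulum and whose promoter holds the E-box printed in capitals, was at 104, 99.0 and 95.6 CPM in WT and 75.6, 74.2 and 71.9 CPM in MLX KO libraries, a log2 fold change of -0.43 (SE 0.050, adjusted p = 8.06e-05). Prdx6b, an intronless relative of Prdx6 and the most abundant peroxiredoxin transcript per kilobase, fell from 498, 534 and 519 CPM to 452, 423 and 395 CPM (log2 fold change -0.29, SE 0.058, adjusted p = 0.00215). The groups of Prdx4 and Prdx6b did not overlap. Prdx6, a peroxiredoxin with a single active cysteine, overlapped between groups, at 125 ± 1.81 CPM in WT and 126 ± 3.67 CPM in MLX KO testes (SD, n = 3 each). Its log2 fold change was 0.01 (-0.091 to 0.11), and it shared 0.156% of its 50-base stretches with other genes. With library size alone it was called at 0.15 (adjusted p = 0.0107). Prdx5 had a log2 fold change of -0.04 (-0.18 to 0.11), and 19.1% of its exon length overlaps Trmt112 on the other strand.

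Of the 5 thioredoxins and thioredoxin reductases tested, 3 rose and 1 fell, where 24.8% of all genes rose and 20.6% fell. The share that fell was thus close to that of all genes. The largest change was in thioredoxin itself. Txn1 (chr4:57943373-57956411), the cytosolic thioredoxin, gave 10.7, 10.2 and 10.5 CPM in WT and 23.8, 27.9 and 26.3 CPM in MLX KO libraries, a log2 fold change of 1.31 (SE 0.089, adjusted p = 3.32e-06). The WT libraries were close together and the lowest MLX KO library was above all of them. Txn2, the mitochondrial thioredoxin, was at 72.3, 75.0 and 68.2 CPM and 71.3, 63.4 and 63.8 CPM with overlapping groups (log2 fold change -0.12, 95% confidence interval -0.25 to 0.017), and was called without MLX KO replicate 1 (-0.17, adjusted p = 0.0212). Of the reductases, Txnrd2 of mitochondria rose from 3.59, 4.20 and 4.62 CPM to 5.52, 7.30 and 6.99 CPM (log2 fold change 0.68, SE 0.16, adjusted p = 0.00541). Txnrd1, the cytosolic reductase, rose from 37.0, 37.3 and 39.5 CPM to 41.0, 50.7 and 50.2 CPM (log2 fold change 0.32, SE 0.082, adjusted p = 0.00879). Txnrd3 (chr6:89643988-89675529), the thioredoxin-glutathione reductase enriched in testis, moved the other way, from 694, 712 and 671 CPM to 599, 544 and 533 CPM (log2 fold change -0.31, SE 0.056, adjusted p = 0.00118). None of the called genes of this group overlapped between genotypes. Txnrd3 remained the main transcript of the group in both genotypes, at 88.0 ± 0.175% of its summed level per kilobase in WT and 80.2 ± 1.54% in MLX KO testes.

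Txndc2 and Txndc8, the spermatid thioredoxins, both fell, beside the round and elongating spermatid markers, 10 of 10 of which fell in each list. Txndc2, of the sperm fibrous sheath, was at 729, 875 and 856 CPM in WT and 653, 688 and 637 CPM in MLX KO testes (log2 fold change -0.31, SE 0.069, adjusted p = 0.00358). WT replicate 1 was the lowest WT library and still lay above every MLX KO library. Txndc8 (chr4:57984021-58009135), linked to the spermatid Golgi and acrosome, was at 87.9, 88.9 and 83.8 CPM and 77.0, 61.8 and 63.0 CPM (log2 fold change -0.37, SE 0.077, adjusted p = 0.00278), also without overlap. Of the broadly expressed thioredoxin-domain genes, Txndc15, known for a role at cilia, rose from 8.33, 10.9 and 9.64 CPM to 12.8, 14.2 and 13.3 CPM (log2 fold change 0.48, SE 0.11, adjusted p = 0.00496). Txndc17, a small cytosolic thioredoxin-like protein, was at 10.5, 10.8 and 10.7 CPM and 12.1, 16.0 and 14.2 CPM (log2 fold change 0.40, SE 0.11, adjusted p = 0.0128), with an adjusted p of 0.105 when DESeq2 blocked the littermate pairs. Without MLX KO replicate 2 its adjusted p was 0.0556. Txndc5, a protein disulfide isomerase of the endoplasmic reticulum, was at 44.9, 42.6 and 44.5 CPM and 51.5, 57.7 and 52.9 CPM (log2 fold change 0.30, SE 0.060, adjusted p = 0.00239). These increases were small. Their groups did not overlap, which held with MLX KO above WT for 30.3% of all genes tested. Txndc9, Txndc11, Txndc12 and Txndc16 were not called, with log2 fold changes of -0.10, 0.26, -0.01 and -0.05. Txndc11 was called without WT replicate 3 (0.35, adjusted p = 0.0246) and with library size alone (0.40, adjusted p = 0.0124).

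Glutaredoxins use glutathione in place of thioredoxin reductase. Glrx, the cytosolic glutaredoxin, was at 3.53, 3.50 and 4.51 CPM in WT and 5.93, 7.86 and 7.57 CPM in MLX KO testes (log2 fold change 0.88, SE 0.16, adjusted p = 0.00132). Glrx2, with a mitochondrial form, fell from 48.8, 50.3 and 52.9 CPM to 46.8, 41.8 and 41.7 CPM (log2 fold change -0.22, SE 0.065, adjusted p = 0.0158). Glrx3, which handles iron-sulfur clusters and is the most abundant glutaredoxin transcript per kilobase, fell from 88.5, 87.8 and 83.5 CPM to 81.2, 68.1 and 77.8 CPM (log2 fold change -0.19, SE 0.065, adjusted p = 0.0302). Of the 50-base stretches of Glrx3, 15.1% occur in other genes, mostly Gm12669. The decreases of Glrx2 and Glrx3 were both near the threshold. The adjusted p of Glrx2 was 0.0589 when DESeq2 blocked the littermate pairs, 0.0627 without WT replicate 3, 0.0667 without MLX KO replicate 2 and 0.0677 without MLX KO replicate 3. That of Glrx3 was 0.140 without MLX KO replicate 2, 0.0539 without MLX KO replicate 3, 0.0877 without WT replicate 1 and 0.0895 without WT replicate 2. With library size alone as the scaling the adjusted p values were 0.274 for Glrx2 and 0.479 for Glrx3. Glrx5, a mitochondrial iron-sulfur protein, had overlapping groups and a log2 fold change of 0.18 (-0.10 to 0.46).

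Glutathione synthesis and glutathione reduction differed in result. Gclc and Gclm, the catalytic and modifier subunits of glutamate-cysteine ligase, the rate-limiting step of glutathione synthesis, were not called. Gclc was at 33.0, 37.1 and 34.2 CPM and 38.3, 36.2 and 37.9 CPM (log2 fold change 0.11, 95% confidence interval -0.033 to 0.26), and Gclm at 34.8, 37.6 and 36.1 CPM and 32.8, 33.2 and 34.1 CPM (log2 fold change -0.11, -0.25 to 0.021). The groups overlapped in Gclc and did not in Gclm. With library size alone Gclc had a log2 fold change of 0.25 and was called (adjusted p = 0.00999). Gsr, the reductase that recycles oxidised glutathione, rose from 18.2, 17.9 and 17.3 CPM to 23.5, 26.3 and 24.2 CPM (log2 fold change 0.47, SE 0.077, adjusted p = 6.48e-04), with no overlap between groups.

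The 24 glutathione S-transferase genes held 22 that could be tested. Of these, 11 rose (50.0%, against 24.8% of all genes) and 5 fell (22.7%, against 20.6%). The share that fell was thus close to that of all genes. Among the mu class, which conjugates a wide range of electrophiles, 4 members rose, all by over 1.5-fold. Gstm2 (chr3:107981702-107986420) was at 175, 216 and 213 CPM in WT and 370.3, 543 and 503 CPM in MLX KO testes (log2 fold change 1.23, SE 0.12, adjusted p = 3.43e-05), and Gstm1 (chr3:108012250-108017973) at 344, 419.7 and 400.2 CPM and 638, 974 and 906 CPM (log2 fold change 1.11, SE 0.13, adjusted p = 8.55e-05). MLX KO replicate 1 was the lowest of its group in both. Gstm6 rose from 20.5, 26.3 and 27.7 CPM to 48.4, 46.8 and 51.8 CPM (log2 fold change 0.98, SE 0.098, adjusted p = 3.21e-05), and Gstm7 from 50.7, 50.0 and 51.8 CPM to 66.9, 87.7 and 87.7 CPM (log2 fold change 0.67, SE 0.092, adjusted p = 2.34e-04). Gstm5 (chr3:107895854-107898685), the mu form of testis and brain, was the most abundant member of the whole selection per kilobase and fell from 1853, 1931 and 1862 CPM to 1575, 1359 and 1375 CPM (log2 fold change -0.39, SE 0.063, adjusted p = 6.07e-04). None of these groups overlapped. Per kilobase of exon, Gstm5 supplied 77.3 ± 1.49% of the summed mu-class level in WT and 54.9 ± 7.10% in MLX KO testes, where the libraries were at 63.0, 49.8 and 51.8%. The summed mu-class level itself was 1906 ± 70.0 CPM per kilobase in WT and 2055 ± 90.1 in MLX KO testes (SD, n = 3 each). Of Gstm5's exon length, 13.9% overlaps the antisense transcript 4933431E20Rik, and 18.9% of the 50-base stretches of Gstm1 occur in other genes, mostly the pseudogene Gstm2-ps1. Gstm4 was not called (log2 fold change -0.11, -0.46 to 0.24).

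In the alpha class, Gsta4, which conjugates the lipid peroxidation product 4-hydroxynonenal, rose from 37.0, 41.1 and 40.4 CPM to 65.3, 81.6 and 79.1 CPM (log2 fold change 0.93, SE 0.084, adjusted p = 1.70e-05). Gsta3 (chr1:21240565-21265575), with the printed TGACATTGC match, rose from 30.8, 32.2 and 32.2 CPM to 40.9, 65.0 and 55.2 CPM (log2 fold change 0.76, SE 0.13, adjusted p = 9.35e-04). In both the lowest MLX KO library was replicate 1, above all WT libraries. Gsta2 was at 2.95, 4.64 and 4.40 CPM and 4.33, 6.09 and 6.83 CPM with overlapping groups, an adjusted p of 0.0601 that became 0.0118 when edgeR blocked the littermate pairs, 0.0100 without MLX KO replicate 1 and 0.0318 with library size alone, and 36.0% of its 50-base stretches in Gsta1. Gstp1, the pi-class enzyme, was at 7.64, 8.08 and 7.95 CPM in WT and 11.3, 13.8 and 14.4 CPM in MLX KO libraries (log2 fold change 0.74, SE 0.12, adjusted p = 4.98e-04), although 33.7% of its 50-base stretches occur in Gstp2. Gstk1, the kappa form of mitochondria and peroxisomes, was at 4.48, 5.66 and 6.20 CPM and 7.74, 13.2 and 8.63 CPM (log2 fold change 0.85, SE 0.20, adjusted p = 0.00557), with MLX KO replicate 2 well above the others.

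The theta and omega classes each held a low transcript that rose and an abundant one that fell. Gstt1 was at 2.90, 2.73 and 2.59 CPM in WT and 4.02, 5.26 and 4.92 CPM in MLX KO testes (log2 fold change 0.78, SE 0.17, adjusted p = 0.00302, or 0.0510 as the adjusted p when DESeq2 blocked the littermate pairs). Gstt4 was the most abundant theta form, at 263 CPM per kilobase in WT testes against 1.79 for Gstt1. It fell from 255, 267 and 258 CPM to 228, 204 and 197 CPM (log2 fold change -0.31, SE 0.058, adjusted p = 0.00145). Gstt2 and Gstt3 had log2 fold changes of 0.03 (-0.099 to 0.15) and -0.18 (-0.34 to -0.027) and were not called. Gstt3 was called without MLX KO replicate 1 (-0.24, adjusted p = 0.0117) and with DESeq2's size factors (-0.21, adjusted p = 0.0338), and Gstt2 with library size alone (0.17, adjusted p = 0.0434). Gsto1, a thiol transferase, was at 3.69, 4.58 and 3.10 CPM and 5.62, 5.92 and 6.14 CPM (log2 fold change 0.64, SE 0.16, adjusted p = 0.00748), with an adjusted p of 0.0731 with the DESeq2 block. Gsto2 (chr19:47865438-47886308), which also reduces dehydroascorbate and was at 109 CPM per kilobase in WT testes against 1.87 for Gsto1, fell from 250.2, 261 and 254 CPM to 206, 198 and 191 CPM (log2 fold change -0.36, SE 0.048, adjusted p = 1.84e-04). No called gene of these classes had overlapping groups. Gstcd, a protein with a GST C-terminal domain, fell from 49.6, 48.5 and 51.4 CPM to 40.4, 38.2 and 32.0 CPM (log2 fold change -0.43, SE 0.081, adjusted p = 0.00138). Gstz1, the maleylacetoacetate isomerase, was not called at 39.6, 39.7 and 46.1 CPM and 43.9, 49.0 and 44.0 CPM (log2 fold change 0.13, -0.040 to 0.29), and was called with library size alone (0.26, adjusted p = 0.0226).

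Mgst1, the microsomal transferase of endoplasmic reticulum and outer mitochondrial membranes, rose from 26.9, 31.2 and 30.0 CPM to 58.9, 73.6 and 69.2 CPM (log2 fold change 1.20, SE 0.088, adjusted p = 5.07e-06). Mgst2, which can form leukotriene C4, fell from 1.90, 2.42 and 2.31 CPM to 1.24, 1.22 and 0.900 CPM (log2 fold change -0.97, SE 0.23, adjusted p = 0.00606), the steepest decrease among the members and the lowest transcript tested per kilobase. It was counted at 36, 38 and 41 reads in WT and 24, 22 and 17 in MLX KO libraries, and its adjusted p was 0.0828 with the DESeq2 block. Mgst3 was not called (log2 fold change 0.26, -0.087 to 0.61). Nqo1, the quinone reductase, was at 2.11, 2.10 and 2.42 CPM and 2.68, 6.20 and 4.71 CPM (log2 fold change 1.03, SE 0.28, adjusted p = 0.0105), with a wide spread among the MLX KO libraries. Hmox1, the inducible heme oxygenase, rose from 9.75, 9.16 and 10.3 CPM to 16.5, 19.8 and 22.8 CPM (log2 fold change 1.02, SE 0.12, adjusted p = 9.96e-05). Hmox2, the constitutive heme oxygenase, was at 487, 512 and 499.9 CPM in WT and 421, 397 and 387 CPM in MLX KO testes (log2 fold change -0.32, SE 0.050, adjusted p = 5.22e-04). The groups did not overlap in any of the called genes here. For Hmox2, 40.2% of the exon length overlaps Cdip1 on the opposite strand, and strand-specific counting is not stated, so reads of these genes cannot be told apart there.

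**Figure D2:**
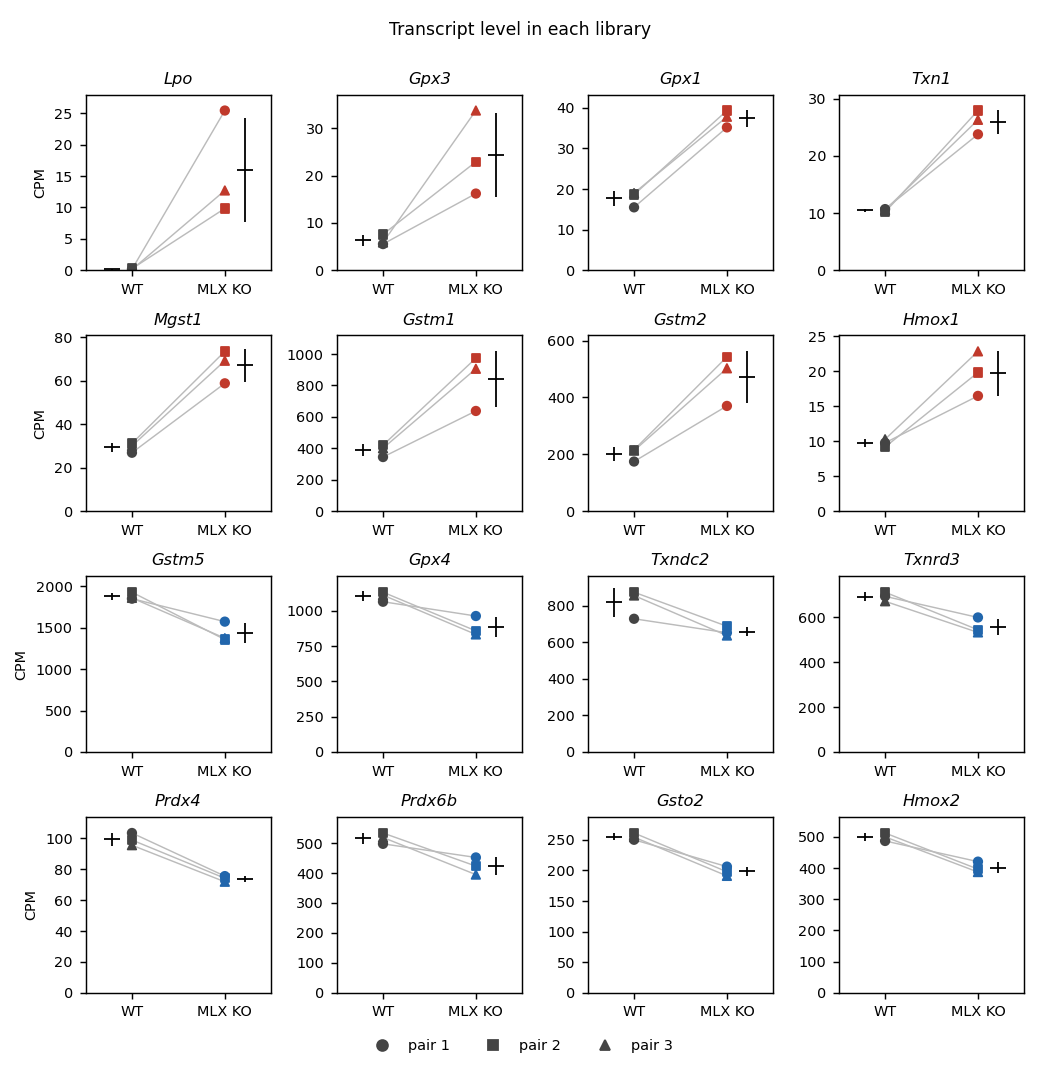
Transcript level in CPM (y axes, from 0) in each WT and MLX KO library for 16 members, with grey lines joining littermates, marker shapes giving the pair, and crosses giving the mean and SD of 3 libraries. In each panel the WT and MLX KO points do not overlap, as for Gstm5, at 1853, 1931 and 1862 CPM in WT and 1575, 1359 and 1375 CPM in MLX KO libraries.

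Members at high and at low level differed in direction. Per kilobase of exon and averaged over the 6 libraries, 10 members were at 100 CPM or more, and 8 of these fell while Gstm1 and Gstm2 rose. The 8 were Gstm5, Gpx4, Txndc2, Gstt4, Txnrd3, Hmox2, Prdx6b and Txndc8. Of all 595 genes tested at that level, 84.0% fell and 4.03% rose, so the share of members that fell there was close to the background. The round and elongating spermatid marker lists fell with medians of -0.27 and -0.55 in the same libraries. Under 100 CPM per kilobase, 28 of 54 members rose and 6 fell, where 25.9% of genes rose and 17.8% fell. Across the 64 members, log2 level per kilobase and log2 fold change correlated at -0.24 (Pearson) and -0.29 (Spearman), and across all genes with a known length at -0.35 and -0.42. Points of such a correlation share the same 6 libraries. Summed per kilobase over all 67 members, the level was 4605 ± 165 CPM per kilobase in WT and 4465 ± 74.1 in MLX KO testes (SD, n = 3 each). The ranges of the genotypes overlapped.

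**Figure D3:**
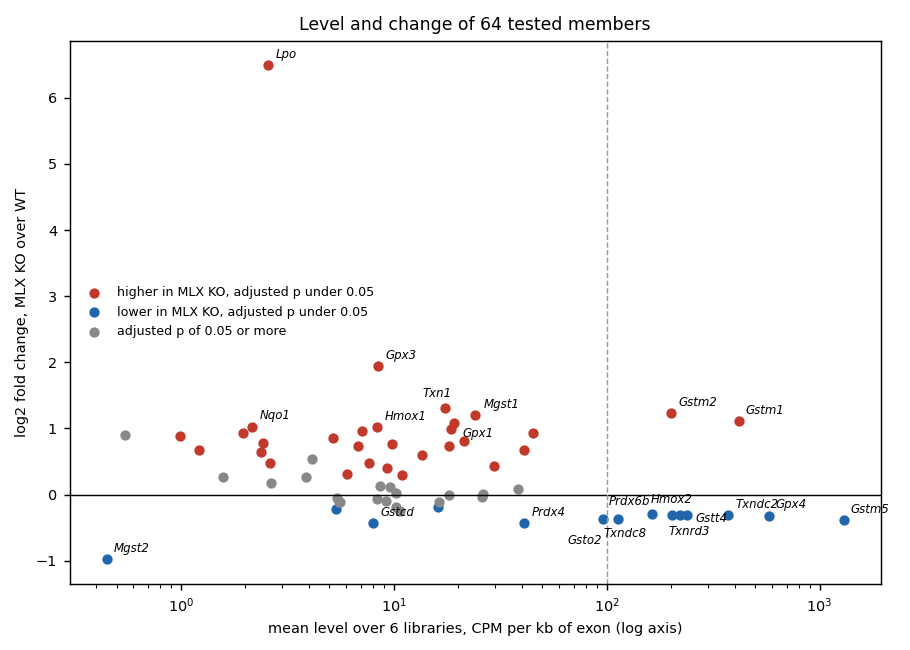
Log2 fold change (MLX KO over WT, y axis) of the 64 tested members against their mean level in CPM per kilobase of exon (x axis, log scale), coloured by the test result. Right of the dashed line at 100 CPM per kilobase, 8 points lie below 0 and the 2 points above it are Gstm1 and Gstm2.

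Some members that neighbour each other in the genome moved in opposite directions and others rose together. Txn1, which rose, and Txndc8, which fell, lie 27.6 kb apart on chromosome 4 and are read from the same strand. Gsto1 and Gsto2 are separated by 0.648 kb on chromosome 19, and the former rose while the latter fell. In the theta cluster of chromosome 10, Gstt1 rose between Gstt3, which was not called, and Gstt4, which fell. Along chromosome 3, Gstm5 lies at the edge of the mu cluster on the plus strand, 27.6 kb from Gstm7, and was the only tested mu gene that fell. Gstm7, Gstm6, Gstm2 and Gstm1, which follow each other on the minus strand apart from Gstm3, which was not tested, all rose. Gstm4, the next mu gene on that strand, 12.6 kb from Gstm1, was not called (log2 fold change -0.11).

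**Figure D4:**
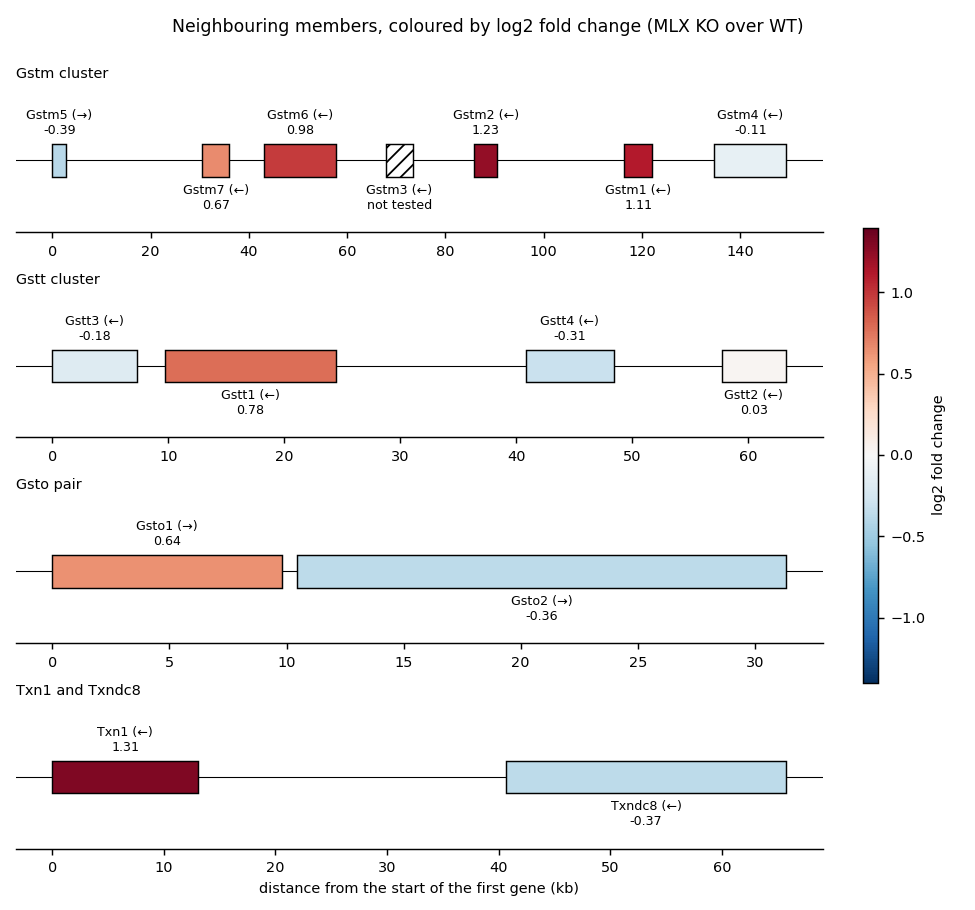
Positions of neighbouring members along their chromosomes, in kb from the start of the first gene (x axes), with arrows for the strand and colours and numbers for the log2 fold change (MLX KO over WT); the hatched gene was not tested. Some adjacent genes carry opposite signs, as for Gsto1 at 0.64 and Gsto2 at -0.36.

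The littermate pairs differed in the size of the change. The difference between genotypes was the smallest of the 3 in pair 1 for 12 of the 14 members that fell and for 20 of the 30 that rose. Over all genes called, pair 1 had the smallest difference for 72.3% of those that fell and 59.0% of those that rose, so the members shared this with the rest of the transcriptome. Median log2 differences of the members that fell were -0.20, -0.39 and -0.41 in pairs 1, 2 and 3, and those of the members that rose were 0.67, 0.85 and 0.88. Some members went the other way, with their largest difference in pair 1. These included Lpo, whose highest level was in MLX KO replicate 1, and Gpx1, Gpx8, Gstm6 and Txndc15, which also rose. Among the members that fell, Prdx4 had its largest difference in pair 1.

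Genes that work with these enzymes but lie outside the selection were followed in lists by role, in which 72 genes could be tested and 35 rose, 16 fell and 21 were not called, with a median log2 fold change of 0.26. Over all genes tested, 24.8% rose and 20.6% fell, with a median of 0.03, which is the background for the count of each list, and the share of the 72 genes that fell was close to it. Of 8 genes listed for NRF2 itself, the transcription factor of antioxidant genes, and for its relatives, partners and regulators, 5 rose and 1 fell. Nfe2l2, which encodes NRF2, rose from 24.3 ± 2.68 CPM in WT to 47.8 ± 4.48 CPM in MLX KO testes (log2 fold change 0.98, SE 0.092, adjusted p = 2.30e-05), and its competitor Bach1 and partner Maff had log2 fold changes of 0.93 (SE 0.13, adjusted p = 2.76e-04) and 0.51 (SE 0.19, adjusted p = 0.0432). Keap1, which marks NRF2 for degradation, fell by 0.21 on the log2 scale (SE 0.061, adjusted p = 0.0143). Of 10 genes that supply NADPH, 7 rose and 2 fell. The widely used glucose-6-phosphate dehydrogenase G6pdx had a log2 fold change of 1.09 (SE 0.12, adjusted p = 6.61e-05), and the isocitrate dehydrogenases Idh1 and Idh2 of 0.96 (SE 0.11, adjusted p = 7.04e-05) and 0.93 (SE 0.12, adjusted p = 1.48e-04). G6pd2, the intronless relative of G6pdx, was lower, with a log2 fold change of -0.26 (SE 0.067, adjusted p = 0.00870), as was the malic enzyme Me3 with -0.32 (SE 0.096, adjusted p = 0.0180).

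Of 15 tested genes of glutathione supply and breakdown, 6 rose and 2 fell. The gamma-glutamyl enzyme Ggt5, the aminopeptidase Anpep and the cystine transporter subunit Slc3a2 had log2 fold changes of 1.45 (SE 0.35, adjusted p = 0.00576), 1.08 (SE 0.25, adjusted p = 0.00481) and 0.68 (SE 0.081, adjusted p = 9.37e-05), and Ggt7 and the dipeptidase Dpep3 of -0.22 (SE 0.065, adjusted p = 0.0165) and -0.20 (SE 0.057, adjusted p = 0.0142). Among 14 thioredoxin-like proteins and repair enzymes, 4 rose and 6 fell. Txnip, which binds thioredoxin and is a known target of MondoA with MLX, fell from 68.5 ± 15.2 CPM in WT to 29.5 ± 1.84 CPM in MLX KO testes (log2 fold change -1.21, SE 0.14, adjusted p = 6.70e-05), opposite to Txn1. Nme8, a thioredoxin-domain protein of sperm tails, and Txnl4b fell with log2 fold changes of -0.41 (SE 0.058, adjusted p = 2.57e-04) and -0.33 (SE 0.053, adjusted p = 6.27e-04). The methionine sulfoxide reductase Msrb1 and the sestrins Sesn2 and Sesn1 rose, by 0.97 (SE 0.15, adjusted p = 4.33e-04), 0.41 (SE 0.061, adjusted p = 3.61e-04) and 0.40 (SE 0.070, adjusted p = 0.00108).

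Quinone, heme and iron genes held 7 of 10 that rose and 1 that fell. The epoxide hydrolase Ephx1, the ferritin light chain Ftl1 and the biliverdin reductase Blvrb had log2 fold changes of 1.32 (SE 0.093, adjusted p = 4.16e-06), 0.99 (SE 0.079, adjusted p = 8.54e-06) and 0.93 (SE 0.16, adjusted p = 9.48e-04), and Nqo2 of -0.33 (SE 0.068, adjusted p = 0.00221). Of 8 tested sources of superoxide and peroxide and other heme peroxidases, 5 rose and 2 fell. The subunits of the phagocyte NADPH oxidase Cybb, Ncf1 and Ncf4 rose with log2 fold changes of 1.82 (SE 0.28, adjusted p = 4.75e-04), 1.47 (SE 0.31, adjusted p = 0.00302) and 1.43 (SE 0.48, adjusted p = 0.0305). Among the genes of this list that fell was Mpo of neutrophils, with a log2 fold change of -1.84 (SE 0.28, adjusted p = 4.59e-04). The macrophage markers rose in 9 of 9 cases, with Cx3cr1 near the threshold (adjusted p = 0.0494). Of 7 genes for selenoprotein synthesis and transport, Sepp1, the plasma carrier of selenium, rose from 106 ± 10.9 CPM in WT to 278 ± 70.0 CPM in MLX KO testes (log2 fold change 1.39, SE 0.15, adjusted p = 5.77e-05), and Secisbp2 and Sephs2 fell with -0.30 (SE 0.067, adjusted p = 0.00376) and -0.17 (SE 0.047, adjusted p = 0.0121).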

How the data were processed

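Total RNA of whole testes, extracted with Trizol, was sequenced as 50 x 50 base paired-end reads on an Illumina HiSeq instrument, and the authors aligned the reads to mm10 with TopHat. The counting tool, the gene annotation and the use of strand are not given in the sources used here. The deposited table holds the authors' counts, given as whole numbers for each symbol in each library. It also holds columns of the authors' own comparison (a mean signal over libraries, log2 fold changes and their standard errors, a test score, and p-values), which were not used. The 16 ChIP-Seq samples were not analysed here. The members, the lists of other genes and the tests were chosen with earlier results of these data known.

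Of 17933 entries, 2 repeated another and were dropped. The libraries of 16674678 to 19742726 counts were fitted together with edgeR 4.0.16 in R 4.3.3 (filterByExpr at its minimum count of 10, TMM, glmQLFit and glmQLFTest with genotype as the only term, two-sided), and p was adjusted by Benjamini-Hochberg over the 14640 genes tested. The threshold was 0.05. CPM values use TMM-scaled library sizes. CPM per kilobase divides by the exon union of GENCODE vM21, found for all 67 members. Positions are RefSeq's on GRCm38.p6. Confidence intervals are 95% intervals of the fit, and the Lpo interval is a binomial one on summed counts. In simulated counts, edgeR recovered 69 of 100 genes changed by 0.5 on the log2 scale and 95 of 100 changed by 1. It also called 6 unchanged genes among the 14551 tested. Few genes were changed there, equally up and down, so the scaling of the real libraries was not checked by it. Alternatives were DESeq2 1.42.0, its size factors in edgeR, library size alone, no filter, leaving out each library, and the littermate pair as a replicate block. The titles call the samples paired and the study names them littermates. Deviations from the group means correlated at 0.145, 0.0363 and 0.121 between libraries of the same number, and at most at 0.0330 between others. Libraries of the same genotype differed beyond sampling noise, so none was counted as a duplicate. In each role class, called members (up to 4 with the largest change in each direction), the member with the highest CPM per kilobase and those with a spermatid role were given per library. From each list of other genes up to 3 in each direction were named, and Txnip and Nfe2l2. A gene of the accompanying lists is not reported here by name.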

Additional observations from a re-analysis of the deposited data

How the results depend on the processing

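Of the 44 called members, 37 (26 that rose and 11 that fell) kept their call and direction under all 12 alternatives, and no called member changed sign under any of them. The counts were 30 higher and 14 lower with DESeq2 and without the filter on low counts, 30 and 15 with DESeq2's size factors in edgeR, and 38 and 12 with library size alone, where the median log2 fold change of the members was 0.42 in place of 0.28. With a replicate block for the littermate pairs, 31 rose and 14 fell in edgeR and 26 and 12 in DESeq2. Leaving out 1 library at a time gave 29 to 31 higher, 12 to 17 lower and medians of 0.26 to 0.33. Over all genes, the replicate block in DESeq2 called 2249 higher and 2355 lower and library size alone 5343 and 1268, against 3634 and 3015.

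Members that changed sign were all uncalled. With library size alone the log2 fold changes were 0.025 for Gclm, 0.030 for Gstm4, 0.10 for Prdx5, 0.079 for Sod2, 0.021 for Txn2, 0.13 for Txndc12, 0.089 for Txndc16 and 0.037 for Txndc9. Prdx6 was at -0.016 with DESeq2, with its size factors and with the replicate block in DESeq2, where Gstt2 was at -8.1e-05. Leaving out 1 library at a time turned the sign of 4 uncalled members, with ranges of -0.24 to 0.055 for Gstm4 (above 0 without MLX KO replicate 1), -0.10 to 0.016 for Prdx5 (above 0 without MLX KO replicate 3), -0.011 to 0.031 for Prdx6 (below 0 without WT replicate 3 or MLX KO replicate 1) and -0.086 to 0.039 for Txndc12 (above 0 without WT replicate 1, WT replicate 2 or MLX KO replicate 3). Uncalled members gained a call in 8 cases with library size alone, 4 without MLX KO replicate 1, and 1 each without WT replicate 1, without WT replicate 3, with DESeq2's size factors and with the replicate block in edgeR. The cause of these changes was not tested. Counts under about 20 per library, as for Gpx7 and Lpo in WT, limit the precision of a fold change.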
